A study of Homo sapiens with 9 samples.

Results

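The heat shock protein genes examined here are 10 genes for molecular chaperones, taken by name from 19748 annotated protein-coding genes on chromosomes 1 to 22 and X. They are HSP90AB1, HSP90AA1 and HSP90B1 of the HSP90 family, HSPA8, HSPA5, HSPA1A and HSPA1B of the HSP70 family, the chaperonin HSPD1, the HSP110 protein HSPH1 and the co-chaperone DNAJB1. The group was chosen by 1 measured value, the significance score of the HSP90AB1 peak in the doxycycline list, and otherwise by gene name. A peak was assigned to a gene when it overlapped the gene's GENCODE span in GRCh37, widened by 2 kb on either side. RNA polymerase II (RNAPII) was immunoprecipitated and sequenced (ChIP-seq) in HEK293, a human embryonic kidney line, to ask how its distribution depends on the helicase RECQL5, which binds the polymerase. In 3 libraries the cells had been infected with lentivirus, carrying the empty vector that served as control shRNA or the RECQL5 hairpin shRNA5 or shRNA7. Another 2 libraries came from HEK293 T-REx cells selected after transfection with pcDNA4/TO-RECQL5, in which a doxycycline-responsive promoter drives full-length RECQL5, grown with 0.0 or 1.0 ng/ml of the drug. The other 4 of the 9 samples were non-specific IgG libraries that served as background for the peak calls, and there was 1 library per group, so no difference below has a replicate check or a p-value. The labels name no heat treatment.

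Chaperones bind unfolded or partly folded proteins and help them fold, travel or be degraded. HSP70 proteins bind and release short stretches of their clients in a cycle of ATP hydrolysis, which J-domain proteins such as DNAJB1 stimulate and exchange factors such as HSPH1 complete, while HSP90 proteins act later, on clients that are nearly folded. In stressed cells heat shock factor 1 binds heat shock elements, inverted repeats of a short GAA unit upstream of many of these genes, and releases RNAPII held just downstream of the start site. HSPA8 and HSP90AB1 are known as the constitutive cytosolic forms, HSPA1A, HSPA1B and DNAJB1 as strongly heat-inducible, HSPA5 and HSP90B1 as the forms of the endoplasmic reticulum, and HSPD1 as a mitochondrial chaperonin.

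The members differed in their promoter sequence. In the 300 bp from 250 bases before to 50 after the start site, an inverted pair of heat shock units, GAANNTTC or TTCNNGAA, was present in 7 of the 10 members and in 11.0% of all 19744 promoters read in this way. A run of 3 alternating units, which contains such pairs, was present in HSP90AA1, HSPA8, HSPD1 and HSPH1 and in 0.365% of all promoters. The letters TATAAA were found in HSPA1A and HSPA1B alone among the members, against 9.72% of all promoters. A CCAAT box was found in 7 members (35.9% of all promoters) and the GC box GGGCGG in all 10 (61.3%). The endoplasmic reticulum stress element was found in HSP90B1 and HSPA5, and in 0.101% of all promoters. All motifs were searched on both strands, and a match is a description of the letters, not a measured site. The stretches below, from 200 bases before to 20 after the start site on GRCh37, show 7 members that the results turn on, written 5′ to 3′ with heat shock pairs in capitals. They include HSP90AB1 and HSPA5, which have no pair in the window, and the near-identical HSPA1A and HSPA1B.
HSP90AB1 (chr6:44214638-44214857, plus strand): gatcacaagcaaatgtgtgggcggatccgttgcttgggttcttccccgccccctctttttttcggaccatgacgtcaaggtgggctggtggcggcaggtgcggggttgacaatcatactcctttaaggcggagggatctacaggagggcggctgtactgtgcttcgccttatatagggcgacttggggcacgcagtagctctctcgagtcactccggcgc
HSP90AA1 (chr14:102553362-102553581, minus strand): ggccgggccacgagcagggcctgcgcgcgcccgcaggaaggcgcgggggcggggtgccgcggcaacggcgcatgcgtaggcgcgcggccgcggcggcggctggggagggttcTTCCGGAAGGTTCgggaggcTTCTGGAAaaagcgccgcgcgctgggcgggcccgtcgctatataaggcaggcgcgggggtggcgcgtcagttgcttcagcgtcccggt
HSPA8 (chr11:122932825-122933044, minus strand): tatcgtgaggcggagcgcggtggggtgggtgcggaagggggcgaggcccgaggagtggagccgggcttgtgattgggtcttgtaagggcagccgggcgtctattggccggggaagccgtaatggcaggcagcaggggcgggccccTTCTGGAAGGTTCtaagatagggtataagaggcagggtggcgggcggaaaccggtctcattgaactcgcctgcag
HSPH1 (chr13:31736022-31736241, minus strand): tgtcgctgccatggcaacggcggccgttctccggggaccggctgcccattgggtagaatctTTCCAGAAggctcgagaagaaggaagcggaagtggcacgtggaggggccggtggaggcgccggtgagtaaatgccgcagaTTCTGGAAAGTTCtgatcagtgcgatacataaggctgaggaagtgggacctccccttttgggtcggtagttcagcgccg
HSPA1A (chr6:31783120-31783339, plus strand): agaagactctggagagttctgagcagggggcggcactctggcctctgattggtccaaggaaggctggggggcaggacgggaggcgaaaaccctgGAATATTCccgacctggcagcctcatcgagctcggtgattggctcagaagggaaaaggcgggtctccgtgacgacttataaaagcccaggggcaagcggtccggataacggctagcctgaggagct
HSPA1B (chr6:31795315-31795534, plus strand): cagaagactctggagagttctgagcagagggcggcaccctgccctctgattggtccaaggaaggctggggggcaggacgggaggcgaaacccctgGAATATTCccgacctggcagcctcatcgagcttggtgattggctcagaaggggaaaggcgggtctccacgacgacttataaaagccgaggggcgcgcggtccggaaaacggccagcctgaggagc
HSPA5 (chr9:128003603-128003822, minus strand): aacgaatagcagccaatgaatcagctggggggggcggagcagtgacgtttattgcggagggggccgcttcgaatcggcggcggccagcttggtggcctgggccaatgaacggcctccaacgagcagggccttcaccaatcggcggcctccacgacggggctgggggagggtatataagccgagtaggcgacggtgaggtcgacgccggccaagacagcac
In the window searched, the first base of the 3-unit run lay at −88 in HSP90AA1, at −59 in HSPH1, at −245 in HSPD1 and at −230 and −55 in HSPA8. The single pair of HSPA1A lay at −106 and that of HSPA1B at −105. The aligned promoters of HSPA1A and HSPA1B were 92.6% identical.

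The control list held 5287 peaks, the hairpin lists 23698 (shRNA5) and 32124 (shRNA7), and the lists of the other arm 47060 without doxycycline and 33900 with it. The study's methods describe similar total read numbers for the libraries compared within an arm, and these totals were not used here. The tags inside peaks, from 842310 in the control list to 6698771 upon shRNA7, therefore do not stand for library depth. The 3 hairpin lists held here are shorter than the peak numbers that the study's methods give, the control list most of all in proportion. Tags are sequenced fragments counted by the authors in each peak, without scaling between libraries or subtraction of background. The value used below is tags per kb of peak, the sum of the tags of a gene's peaks over the sum of their lengths, with an exact 95% Poisson interval in brackets that covers counting error only. The efficiency of immunoprecipitation and the treatment cannot be told apart in these values, and the smallest peak held 35 tags in the control list against 9 without doxycycline. VIM, the gene of an intermediate filament protein abundant in this line, had a start site peak in each list, and PAX2, a kidney marker, had 1 peak of 18 tags without doxycycline and none elsewhere. The other markers fixed for the line, NEFM and NES, had no peak in any list, nor did ALB, PTPRC, HBB and MYOD1 of other cell types. RECQL5 itself had no peak in the control and shRNA5 lists, and had peaks with 748 tags upon shRNA7 and, in the doxycycline arm, 1171 without the drug and 1623 with it. The knockdown itself cannot be read from peaks.

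RNAPII peaks were present at nearly every member. Of the 50 pairs of a member and a list, 48 had a peak, and 8 members had 1 in each of the 5 lists, as did 22.3% of all protein-coding genes. In the control list 8 of 10 members had a peak, against 23.7% of all genes. All 10 had a peak in each of the other lists, against 54.4% of all genes upon shRNA5, 62.2% upon shRNA7, 65.7% for cells without doxycycline and 55.2% for cells with it. Each member with a peak also had 1 within 500 bp of its start site, for which the shares of all genes were 16.0%, 42.0%, 50.3%, 54.5% and 46.0% in the same order.

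HSP90AA1, the stress-inducible cytosolic HSP90, and HSPH1 were the 2 members without a peak in the control list as held here, which is shorter than the study describes. Both had peaks upon each hairpin, a pattern shared by 29.8% of all protein-coding genes. HSP90AA1 was well occupied in the other lists, with 1420 tags upon shRNA5, 3134 upon shRNA7 and, in the doxycycline arm, 643 without the drug and 631 with it. Of 367 genes with at least as many tags per kb as HSP90AA1 upon shRNA5, 350 (95.4%) had a control peak. Of 412 such genes upon shRNA7, 378 (91.7%) had 1. Thus HSP90AA1 was among 17 and 34 genes respectively that stood this high and lacked a control peak. The nearest control peak lay 107 kb from its span, so the start site of its neighbour WDR20, which carried a peak in the other 4 lists, had none either. For HSPH1 the nearest control peak was 517 kb away. HSPH1 was weaker, and of the 1299 genes at least as high upon shRNA5 91.4% had a control peak, against 50.2% of 8184 genes upon shRNA7. The control list is the shortest of the 5, and why it lacks these peaks was not tested.

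**Figure D1:**
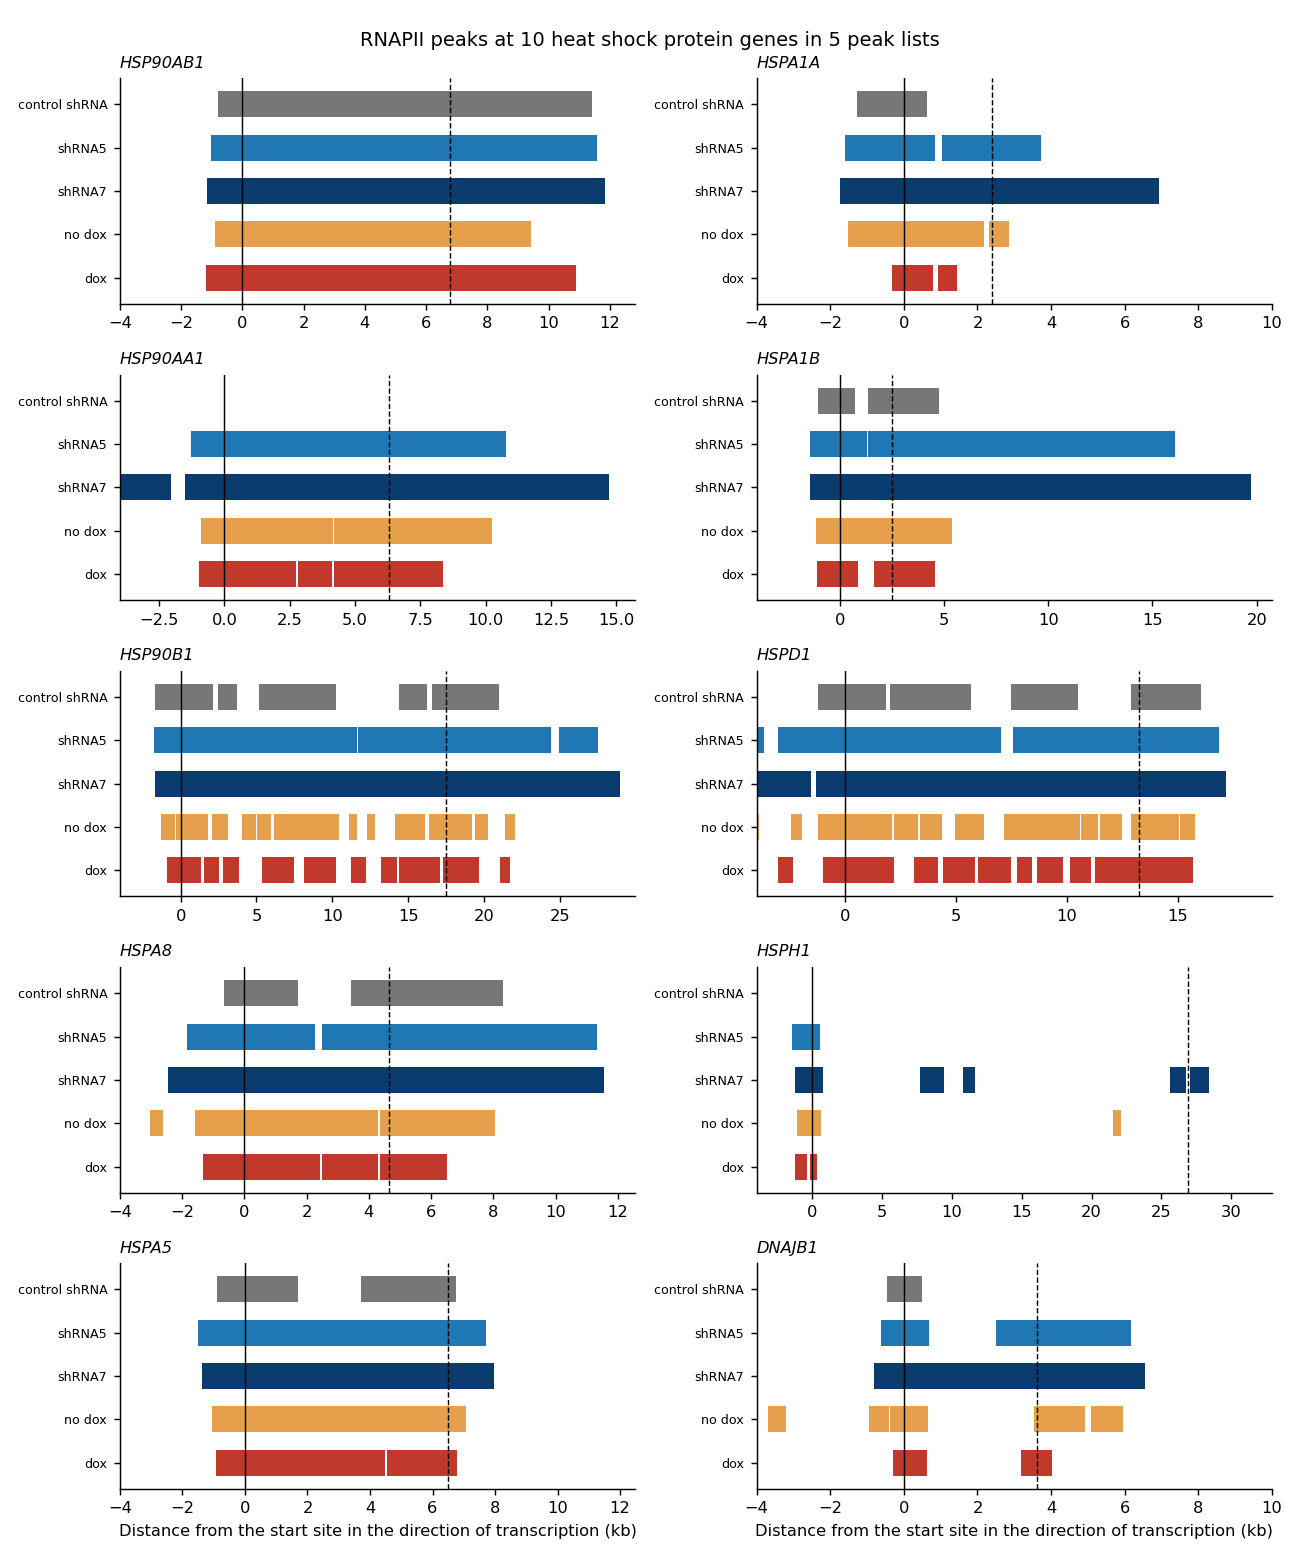
Peaks of the 10 members in the 5 lists, drawn as bars along the distance from the start site in kb, with transcription to the right (solid line, start site; dashed line, transcript end). Peaks that end more than 4 kb upstream are not drawn. HSP90AB1 was covered by a single peak in each list, HSP90AA1 and HSPH1 had no control peak, and upon shRNA7 a single bar runs from start to end at 9 of the 10 members.

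HSP90AB1 had the highest density of the group in 4 of the 5 lists. It was chosen on its rank in the doxycycline list, where its peak was second by significance score at 3209, between a peak at 3233 and another at 3209. This choice is a description, and the tags per kb of that list are bound up with it. A single peak covered the gene (ENSG00000096384, chromosome 6 from 44213903 to 44221625, plus strand) from before its start to past its end in all 5 lists. That peak held 1473 tags in the control list, 2162 upon shRNA5, 2707 upon shRNA7 and, in the doxycycline arm, 1035 without the drug and 1204 with it. In tags per kb this was 121 (115 to 127), 171 (164 to 179), 209 (201 to 217), 101 (94.5 to 107) and 99.5 (94.0 to 105). The 3 hairpin lists did not overlap in their intervals, while the pair of the doxycycline arm did. Among genes with a peak in the same list these densities stood at percentiles 98.9, 99.6, 99.4, 99.2 and 98.6. The length of the peak differed little between hairpins, from 12208 bp in the control list to 12982 bp upon shRNA7. It reached the start site of the neighbour SLC35B2 in 4 lists and ended short of it without doxycycline, so its far end also holds RNAPII of that gene. Of 4408 other genes with a peak in each list, those with the most similar densities over the 5 lists were DDX39B (distance of 0.170 in log2 tags per kb), MCCD1 (0.186), which lies beside DDX39B and shares its peaks, and the actin gene ACTB (0.211).

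HSP90AA1 had a start site peak of 1316 tags upon shRNA5 that ran without a break to 4472 bp past the transcript end. Upon shRNA7 that peak held 2693 tags and ran to 8430 bp past the end. In the doxycycline arm the gene was covered in pieces, by 374 tags at the start and 257 over the end without the drug. With the drug a start peak of 330 tags was followed by 3 peaks of 59, 20 and 157 tags. Over all peaks of its span the density was 100.2 (95.1 to 106) upon shRNA5, 129.6 (125 to 134) upon shRNA7 and, in the doxycycline arm, 54.8 (50.7 to 59.2) without the drug and 59.6 (55.0 to 64.4) with it. The annotated span (chromosome 14 from 102547079 to 102606036, minus strand) is far longer than the 6303 bp of the reference transcript. It therefore includes a peak between −53.0 and −52.4 kb, at the start of WDR20, with 104, 162, 12 and 65 tags in the same lists. The start summit of HSP90AA1 was the most constant of the group, at 34 to 37 bp downstream of the start site in the 4 lists that had it.

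HSP90B1 (chromosome 12 from 104323885 to 104347709, plus strand), which encodes the HSP90 of the endoplasmic reticulum, was covered along its 17517 bp transcript but thinly. Its density was 46.9 (43.7 to 50.3) in the control list, 64.6 (61.7 to 67.6) upon shRNA5, 83.0 (79.8 to 86.3) upon shRNA7 and, in the doxycycline arm, 32.9 (30.3 to 35.7) without the drug and 39.1 (36.1 to 42.2) with it. Among genes with a peak these stood at percentiles 37.5, 80.6, 87.0, 62.6 and 49.0. In the control and doxycycline lists the HSP90B1 intervals included the medians of all genes with a peak, 49.5 and 39.3. Upon shRNA7 a single peak of 30664 bp and 2545 tags covered the gene and 11451 bp beyond. In the doxycycline arm the same interval was broken into 12 peaks without the drug and 12 with it. The highest point of the start peak moved with this joining, from 126 bp downstream in the control list to −793 upon shRNA5 and 19112 upon shRNA7, which lies beyond the transcript end. UQCC6 overlaps the downstream part on the opposite strand, and the lists do not separate strands. The shRNA7 peak reached the start of UQCC6, where a separate shRNA5 peak of 161 tags also lay.

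HSPA8, the constitutive cytosolic HSP70, is on chromosome 11 (122928197 to 122933938, minus strand). HSPA5, also known as BiP, is on chromosome 9 (127997132 to 128003661, minus strand). Their coverage had a similar shape. The HSPA8 tags were 448 in the control list, 1258 upon shRNA5, 2003 upon shRNA7 and, in the doxycycline arm, 528 without the drug and 402 with it. Its density was 62.0 (56.4 to 68.0), 96.9 (91.6 to 102), 143 (137 to 149), 52.7 (48.3 to 57.4) and 52.2 (47.2 to 57.6). For HSPA5 the densities were 62.3 (56.0 to 69.2), 79.9 (74.2 to 85.9), 116 (109.5 to 123), 50.5 (45.7 to 55.6) and 58.2 (52.9 to 63.8). In the control list both genes had a peak at the start and another over the end with a gap between them. Upon shRNA7 a single peak spanned each of them. Their reach beyond the end differed, with 6915 bp for HSPA8 and 1484 bp for HSPA5 upon shRNA7. Small nucleolar RNA genes, SNORD14C, SNORD14D and SNORD14E, lie in HSPA8 introns, and their own contribution cannot be told apart from that of the host.

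HSPA1A and HSPA1B are neighbouring, intronless copies on chromosome 6, from 31783320 to 31785723 and from 31795515 to 31798031, both on the plus strand. They were 95.9% identical over 2393 aligned bases. Only 23.8% of the 36-base windows of HSPA1A and 27.3% of those of HSPA1B occurred once in the genome, a tag being 36 bases long, and 72.2% and 68.9% occurred at 2 places. For the other members the unique share of the transcript was 76.7% (HSP90AA1) to 97.8% (HSPH1). The study's methods name Bowtie's option for the best alignment, but how equally good matches were resolved is not given in the sources used here, so the division of tags between the copies is uncertain. HSPA1A had 120 tags in the control list, 335 upon shRNA5, 913 upon shRNA7 and, in the doxycycline arm, 196 without the drug and 82 with it. Its density was 63.3 (52.5 to 75.7), 65.0 (58.3 to 72.4), 105 (98.6 to 112), 46.3 (40.0 to 53.2) and 50.5 (40.2 to 62.7). Each HSPA1A start peak also covered or came within 500 bp of the start of HSPA1L, a testis HSP70 gene that is transcribed in the opposite direction.

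HSPA1B was denser than HSPA1A in each list, with intervals that overlapped in the control list alone. Its density was 77.1 (69.7 to 85.0) in the control list, 113 (108 to 118) upon shRNA5, 226 (219 to 232) upon shRNA7 and, in the doxycycline arm, 73.4 (67.0 to 80.3) without the drug and 78.8 (71.1 to 87.0) with it. Upon shRNA7 a single peak of 21179 bp held 4776 tags, the most of any member peak and number 29 of 32124 in that list. It ran 17222 bp past the end of the gene and over SNHG32, SNORD48 and SNORD52, as did the second shRNA5 peak of 1604 tags. The start peak alone, which ended within the gene, had 108 tags per kb in the control list and 137 upon shRNA5. The HSPA1B values upon either hairpin therefore include tags from beyond the gene.

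HSPD1 (chromosome 2 from 198351308 to 198381461, minus strand), which encodes the mitochondrial HSP60, shares its promoter region with HSPE1, the gene of its partner HSP10. Its density was 53.3 (49.6 to 57.1) in the control list, 67.9 (64.6 to 71.4) upon shRNA5, 102 (97.9 to 106) upon shRNA7 and, in the doxycycline arm, 37.8 (35.0 to 40.8) without the drug and 48.0 (44.7 to 51.6) with it. The start peak, of 157 tags in the control list and, in the doxycycline arm, 222 without the drug and 216 with it, covered the starts of both genes. A further peak between −16.3 and −16.0 kb lay at the start of MOB4 in all 5 lists. Where start and body were separate, the HSPD1 start summit lay at 31, 31 and 35 bp. Upon shRNA5 and shRNA7 the joined peaks had their summits 4631 and 14143 bp downstream, and the latter was 887 bp past the transcript end.

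HSPH1 (chromosome 13 from 31709110 to 31736525, minus strand) was the member with the fewest tags in the 4 lists where it had a peak. It had 149 tags upon shRNA5, 360 upon shRNA7 and, in the doxycycline arm, 67 without the drug and 73 with it, and no peak covered its transcript end in any list. Its density was 72.3 (61.2 to 84.9), 50.9 (45.8 to 56.5), 30.0 (23.2 to 38.1) and 52.2 (40.9 to 65.6) in these lists. The lower value upon shRNA7 came with 4 weak peaks of 31 to 62 tags beyond the start peak, with an FDR of 3.34 to 15.7%. The start peak itself had 72.3 tags per kb upon shRNA5 and 85.1 upon shRNA7. Taking the start peak with the most tags, the HSPH1 summit lay far upstream of its start in 3 lists, at −725 upon shRNA5, −688 upon shRNA7 and −706 with doxycycline. Without doxycycline the summit lay at 73, and with the drug a second start peak of 31 tags had its summit at −35. HSP90B1 likewise had weaker start peaks with upstream summits, at −764 without doxycycline and −773 with it.

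DNAJB1 (chromosome 19 from 14625581 to 14671203, minus strand) has a transcript of 3629 bp within a longer annotated span. It had 44 tags in the control list, 342 upon shRNA5, 808 upon shRNA7 and, in the doxycycline arm, 192 without the drug and 112 with it. Its density was 46.0 (33.4 to 61.8), 57.6 (51.7 to 64.0), 93.7 (87.4 to 100.4), 37.7 (32.5 to 43.4) and 46.4 (38.2 to 55.8). The control peak ranked 5187 of 5287 by tags and lay over the start alone. Upon shRNA5 a peak of 214 tags was added over the end, and upon shRNA7 a single peak of 735 tags ran from the start to 2914 bp past the end. A peak between −11.3 and −11.2 kb, at the start of TECR, was counted with DNAJB1 in the other 4 lists.

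**Figure D2:**
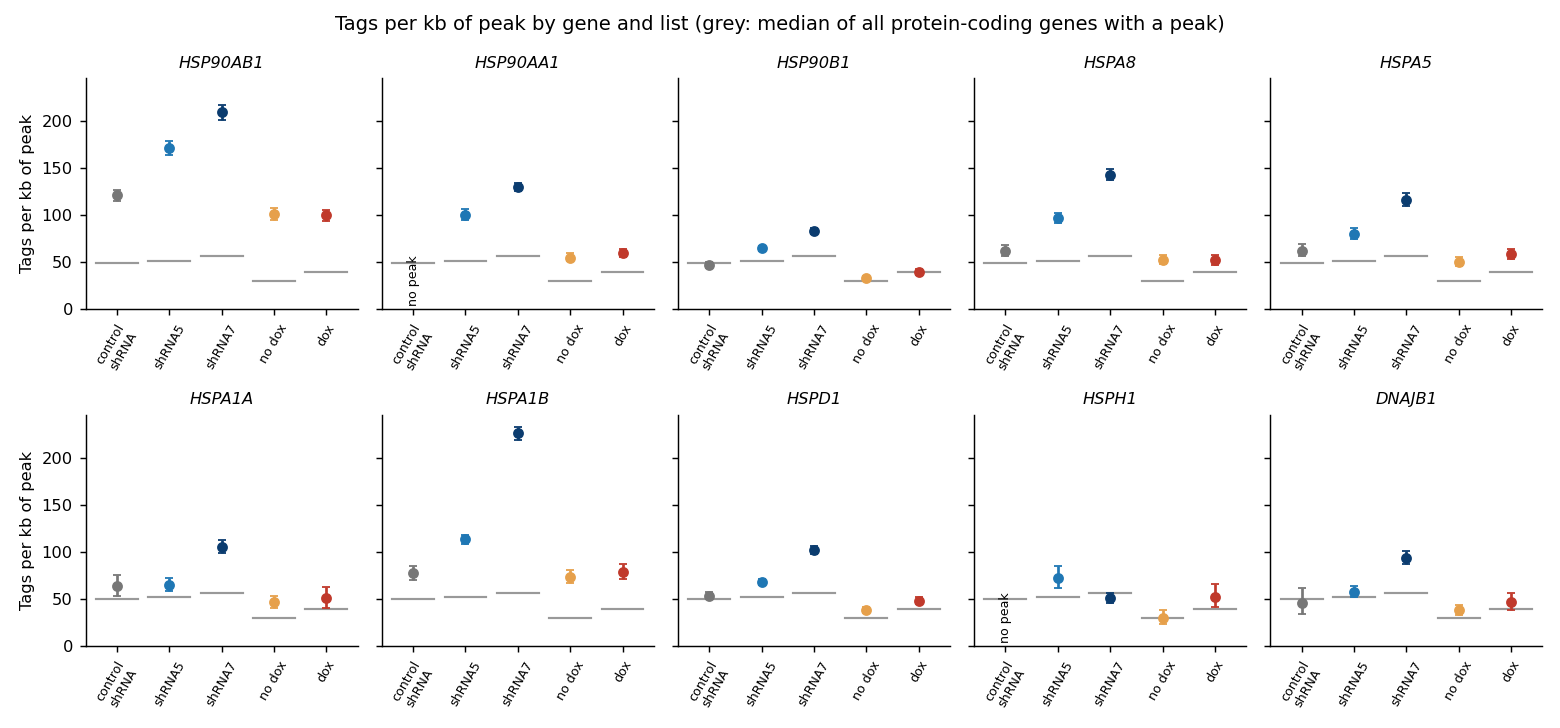
Tags per kb of peak for each member in the 5 lists. Points carry exact 95% Poisson intervals, and grey lines mark the median of all protein-coding genes with a peak in that list (49.5, 51.5, 56.0, 29.7 and 39.3). The shRNA7 point is the highest of the 5 in every panel except HSPH1.

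The order of the members was similar between lists. HSP90AB1 stood first and HSPA1B second in 4 lists, in each case above the following gene by more than the counting interval except for HSPA1B in the control list, and they changed places upon shRNA7 with intervals that did not overlap. HSP90AA1 was next in 3 of its 4 lists, and its interval overlapped that of HSPA8 in these 3 but not upon shRNA7. DNAJB1 was last in the control list, where HSP90B1 and DNAJB1 overlapped, and upon shRNA5. HSPH1 was last upon shRNA7 and without doxycycline, and HSP90B1 with it. The intervals of neighbours from HSPA5 downwards overlapped except for DNAJB1 over HSP90B1 and HSP90B1 over HSPH1 upon shRNA7.

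The members stood above the typical gene with a peak. Their median density was 62.2 tags per kb in the control list against 49.5 for all genes with a peak, 76.1 against 51.5 upon shRNA5, and 111 against 56.0 upon shRNA7. In the doxycycline arm it was 48.4 against 29.7 without the drug and 52.2 against 39.3 with it. The median percentile of the members was 82.7, 90.0, 94.7, 89.3 and 82.1 in the 5 lists. Of the members 2, 5, 8, 5 and 2 were within the top 10% of genes with a peak. HSP90AB1, whose doxycycline peak was used to choose the group, is among the 2 with doxycycline and enters each of these medians. The doxycycline values are therefore not independent of that choice.

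The hairpin lists were compared with the control list at the 8 members with a control peak. Upon shRNA5 the fold in tags per kb over the control was 1.03 to 1.56, with a median of 1.33, against a median of 1.25 over 4656 genes with peaks in both lists. HSPA8, at 1.56 (interval 1.40 to 1.74), was the 1 member that reached 1.5-fold, as did 13.4% of all genes. HSPA1A had the lowest fold at 1.03 (0.831 to 1.28), with a weaker peak of 42.2 tags per kb added upon shRNA5. With the strongest peak alone HSPA1A was at 1.43 and HSPD1 was lowest at 1.02. HSP90B1 (1.55) and HSPA1B (1.78, through the peak over SNHG32) then also reached 1.5-fold. Upon shRNA7 the fold was 1.66 to 2.92 with a median of 1.89, against a median of 1.41 over 4498 genes. All 8 members reached 1.5-fold, as did 41.6% of all genes. HSPA1B had the highest fold, 2.92 (2.64 to 3.25), followed by HSPA8 with 2.30 (2.08 to 2.56) and DNAJB1 with 2.04, on 44 control tags. The HSPA1B value upon shRNA7 comes from a peak that ran 17222 bp past the gene, over SNHG32. The division of tags between HSPA1A and HSPA1B is also uncertain. HSP90AB1 was 1.42-fold (1.33 to 1.52) higher upon shRNA5 and 1.73-fold (1.62 to 1.84) higher upon shRNA7. Divided by the median of all genes, the median fold of the members upon shRNA7 was 1.34, and 2 of the 8, HSPA8 at 1.63 and HSPA1B at 2.07, still reached 1.5-fold while the others lay at 1.18 to 1.44. Upon shRNA5 none of the 8 reached it after that division. Both comparisons share the control library, so their directions are not independent.

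Since the control list lacked 2 members, shRNA7 was also compared with shRNA5, a comparison chosen after the data were seen. All 10 members could be used. Their median fold was 1.47 (range 0.704 to 1.99), against 1.14 over 10360 genes. HSPA1B (1.99), DNAJB1 (1.63) and HSPA1A (1.62) reached 1.5-fold, as did 8.57% of all genes. After division by the median of all genes HSPA1B alone did, at 1.74. With the strongest peak alone HSPA1A was at 1.17, while HSP90AA1, at 1.29 over all its peaks, was at 1.52. The limits given above for HSPA1B and for the division of tags between the copies hold here too. HSPH1 was lower upon shRNA7, at 0.704 (0.580 to 0.858), and its fold was 1.18 with the strongest peak alone.

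**Figure D3:**
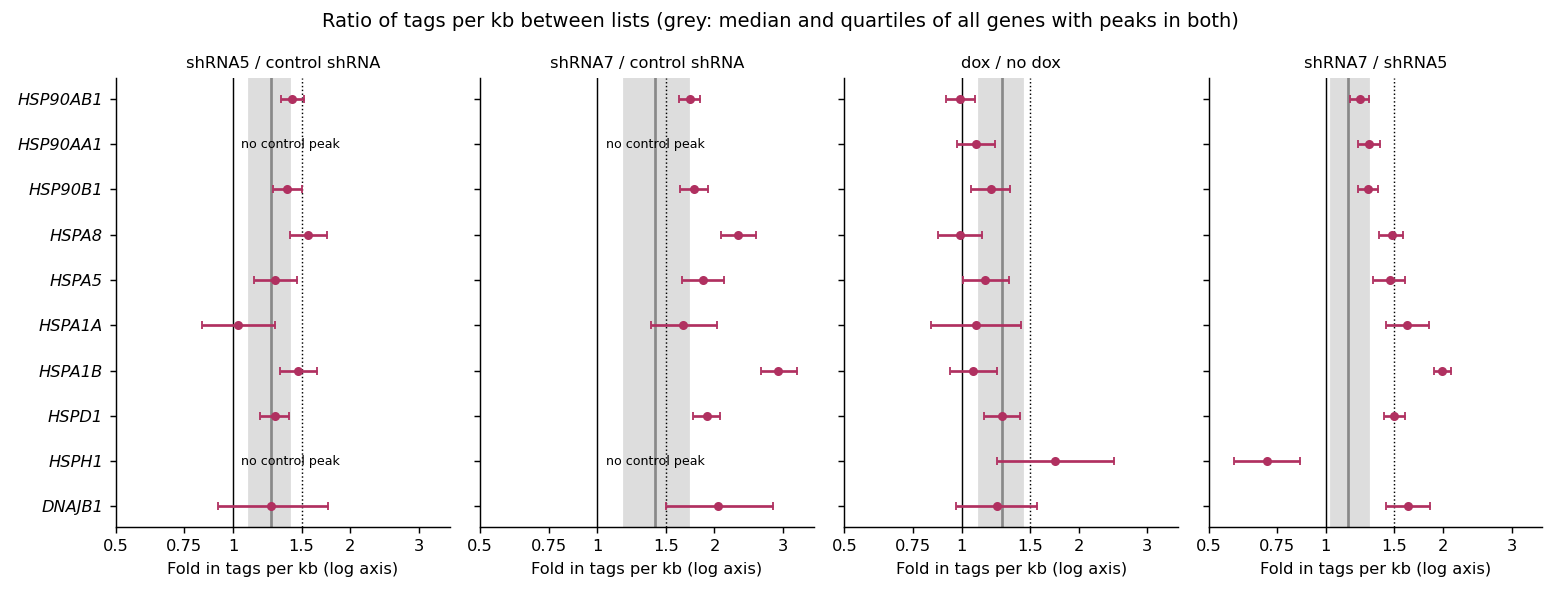
Fold in tags per kb of each member in 4 comparisons, on a log axis. Bars are exact 95% intervals for counting error, the grey band and line give the quartiles and median of all genes with peaks in both lists, and the dotted line marks 1.5-fold. All 8 measurable members lie at or above 1.66 for shRNA7 against control, while with doxycycline 9 of the 10 lie at or below 1.27.

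In tags per kb over all their peaks, the members differed little between cells with and without doxycycline. The median fold was 1.12 (range 0.990 to 1.74), below the median of 1.27 over 10686 genes with peaks in both lists. HSPH1 was the 1 member at least 1.5-fold higher, at 1.74 (1.23 to 2.46), as were 18.0% of all genes, and it was at 1.37 after division by the median of all genes and at 1.09 in summed tags. No member was at least 1.5-fold lower, as were 0.580% of all genes. Other settings moved some members further. HSPA1B was at 1.73 with the strongest peak alone. DNAJB1 was at 1.60 with peaks scoring 100 or more and at 0.583 in summed tags. HSP90AB1 and HSPA8 were each at 0.990, with intervals of 0.910 to 1.08 and 0.868 to 1.13. HSP90B1, HSPA5, HSPD1 and HSPH1 were above 1 by more than their counting intervals. Divided by the median of all genes, the median fold of the members was 0.881, and HSP90B1, HSPA5 and HSPD1 fell below 1, at 0.932, 0.905 and 0.997. The direction at these 3 genes thus depends on how the libraries are scaled to one another.

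Summed tags gave a different scale from density. Over the members with peaks in both lists the median fold in tags was 2.59 upon shRNA5, 3.95 upon shRNA7 and 1.03 with doxycycline, against 3.27, 6.65 and 0.950 over all genes. The median fold in covered length was 1.76, 1.90 and 0.836, against 2.66, 4.76 and 0.775. HSP90AB1, the 1 member covered from end to end by a single control peak, differed little in length upon shRNA7 (1.06-fold). DNAJB1, with the start alone covered in the control list, had 9.02 times the length and 18.4 times the tags upon shRNA7. HSPA1A had 0.418 times the tags with doxycycline and 0.383 times the length, at a density fold of 1.09 (0.833 to 1.42).

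Peaks touching the 500 bp around a member's start held 57.4% of all member tags in the control list, 58.5% upon shRNA5, 94.0% upon shRNA7 and, in the doxycycline arm, 70.9% without the drug and 60.8% with it. These shares include start peaks that run over the whole gene. Without HSP90AB1, whose single peak does so in each list, they were 35.9%, 49.2%, 93.1%, 62.9% and 47.5%. The high share upon shRNA7 went with start peaks of 13498 bp median length, which had joined with the body, against 2468 bp in the control list. The density of start peaks was 87.8 tags per kb in the control list against 52.9 for body peaks, 98.8 against 84.1 upon shRNA5, 69.0 against 32.4 without doxycycline and 80.5 against 41.0 with it. The start values include the gene-wide HSP90AB1 peak, at 121, 171, 101 and 99.5 tags per kb in the same lists. They were not recomputed without it, so they do not compare starts with bodies alone. Of the 48 pairs of a member and a list with a start peak, 41 had the summit of the peak with the most tags 0 to 200 bp downstream of the start, and the median over all 48 was 35.5 bp. The exceptions were the upstream summits of HSPH1 and HSP90B1 and the joined peaks of HSP90B1 and HSPD1. DNAJB1 in the control list was next, at 173 bp. AT content around the summits of start peaks had a median of 39.4 to 40.2% over the lists, against 51.0 to 60.1% for the other member peaks.

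Upon shRNA7 a single peak ran from the start site to the transcript end at 9 of the 10 members, HSPH1 being the exception, as at 5.29% of all genes. In the control list this held for HSP90AB1 alone (1.16% of all genes), and upon shRNA5 for HSP90AB1, HSP90AA1 and HSPA5 (2.71%). It held for HSP90AB1, HSPA5 and HSPA1B without doxycycline (1.42%) and for HSP90AB1 alone with it (1.28%). These shares are over genes of any length, with or without a start peak. For this count no share was taken over genes of similar length with a start peak. This count was added after the data were seen, and it depends on where the peak caller broke a signal. With peaks under 1 kb apart merged it was 2 in the control list, 8 upon shRNA5, 9 upon shRNA7, and 7 and 6 in cells without and with doxycycline.

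Peaks reached the transcript end of most members. The end was covered in 6 members in the control list (7.26% of all genes), 9 upon shRNA5 (20.6%), 9 upon shRNA7 (30.2%), 9 in cells without doxycycline (11.5%) and 8 in cells with it (9.70%). Since many genes lack a start peak, the share was also taken over genes with one and a transcript of 2400 to 26932 bp, the range of the members. Among these the end was covered in 34.1%, 49.8%, 63.5%, 27.3% and 24.6% in the 5 lists. HSPH1, the longest member, was the 1 whose end was never covered, and HSPA1A and DNAJB1 lacked cover in the control list, HSPA1A also with doxycycline. The median reach past the end among covered members was 3123 bp in the control list, 4472 bp upon shRNA5, 5057 bp upon shRNA7 and, in the doxycycline arm, 2631 bp without the drug and 2064 bp with it. Over all covered genes it was 2095, 2982, 3801, 1860 and 1794 bp. HSPA5 stopped shortest in the control list, at 246 bp, and HSPA1B reached farthest upon shRNA7, at 17222 bp.

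**Figure D4:**
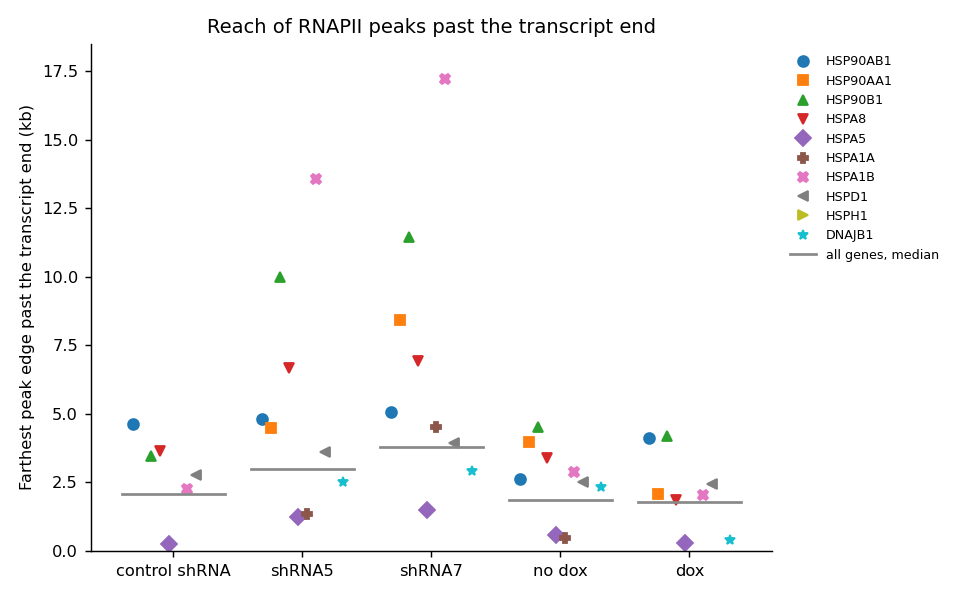
Distance from the transcript end to the farthest peak edge beyond it, in kb, for members whose end was covered by a peak. Symbols are genes and grey lines the median over all covered genes. HSPA1B upon the 2 hairpins (13587 and 17222 bp) and HSP90B1 (9991 and 11451 bp) lie farthest out, and HSPH1 has no symbol since its end was never covered. Both HSP90B1 edges are of peaks at the start of UQCC6. Upon shRNA5 that is a separate peak, and the peak over the HSP90B1 end stopped at 6911 bp.

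Other genes of the chaperone system were examined by lists fixed by family, 71 genes in 7 lists, of which 69 were matched by symbol and AHSA2P and HSPB11 were not. The lists were drawn up with results of these data known. Of these 69 genes 35 had a peak in the control list (23.7% of all genes), 53 upon shRNA5 (54.4%), 57 upon shRNA7 (62.2%), 59 in cells without doxycycline (65.7%) and 57 in cells with it (55.2%). In each list of genes, the one with the highest median percentile over the 5 peak lists is named, which need not be the highest in any 1 of them. A gene without a peak in a list was given the lowest percentile there. Among 11 further HSP70 genes, HSPA1L with the HSPA1A start peak included, 7 had a control peak and 10 a peak upon shRNA7. By that rule HSPA2 came first, at 80.8, 101, 138, 113 and 76.4 tags per kb in the 5 lists, while HSPA6, a strictly heat-inducible HSP70 gene, had no peak in any list. Among 11 matched HSP90 family genes and co-chaperones 6 had a control peak and 11 upon each hairpin. The p23 gene PTGES3 came first, at 55.8, 77.8, 98.8, 38.4 and 47.1, although UNC45A was higher upon both hairpins (79.5 and 107). Of the 14 J-domain genes 6 had a control peak and 14 upon shRNA7, and DNAJB4 came first, at 98.4, 103, 97.2, 97.4 and 92.9, with DNAJA1 above it upon shRNA7 (106).

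Of the 10 nucleotide exchange factor genes 4 had a control peak and 9 upon shRNA7. BAG2 had control peaks but none upon either hairpin. SIL1 came first, at 66.2, 73.1, 64.6, 59.1 and 69.7, although BAG6 was higher with the control hairpin (66.9), shRNA5 (88.1) and shRNA7 (149). The 9 chaperonin genes all had a control peak, but 8 had one upon shRNA5 and 7 upon shRNA7. CCT5 lacked a peak upon both hairpins and CCT4 upon shRNA7. Among all 4681 genes with a control peak 25 had none upon shRNA5, 183 none upon shRNA7 and 11 none upon either. HSPE1 came first among the chaperonins, at 51.1, 63.8, 103, 55.9 and 61.2, through peaks it shares with HSPD1. TCP1 was above it in the control list (64.7) and upon shRNA5 (87.1), as were CCT7 (69.4 and 76.7) and CCT8 (59.5 and 70.1). CCT5 (52.1) and CCT6A (53.9) were also above it in the control list, and CCT2 (66.1) and CCT4 (72.4) upon shRNA5.

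Small heat shock protein genes had few peaks. Of 9 matched genes 5, HSPB2, HSPB3, HSPB7, HSPB8 and CRYAA, had no peak in any list, and 1, HSPB6, had a control peak, with 59.9 tags per kb. HSPB6 came first by the same rule but had no peak upon shRNA7, where HSPB9 had 70.7 tags per kb. Of the 5 heat shock factor genes HSF4 had no peak, and HSF1, which encodes the factor that binds heat shock elements, had 41.6, 55.5, 74.1, 29.9 and 36.2 tags per kb. Upon shRNA7 41.6% of all genes were at least 1.5-fold above the control, with a median fold of 1.41. The median fold was 1.59 over 7 HSP70 genes (4 at least 1.5-fold higher) and 1.64 over 6 HSP90 genes and co-chaperones (4). It was 1.32 over 6 J-domain genes (1), 1.38 over 3 exchange factor genes (1) and 1.51 over 7 chaperonin genes (5). The HSP70 genes include HSPA1L, at 63.3 tags per kb in the control list and 101 upon shRNA7, which shares the HSPA1A start peak. The chaperonins include HSPE1, which shares peaks with HSPD1. The medians were not recomputed without them. With doxycycline the medians were 1.06, 1.38, 1.40, 1.15 and 1.34 over 9, 10, 13, 10 and 9 genes in the same order, against 1.27 over all genes. No gene of these lists was at least 1.5-fold lower with doxycycline, as were 0.580% of all genes.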

How the data were processed

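RNAPII and IgG libraries were made by the authors from crosslinked chromatin sheared and sequenced on an Illumina GAIIX. Per the submitters' processing notes and the study's methods, reads were processed with CASAVA 1.8, aligned with Bowtie 0.12.7 (best alignment), cleared of blacklisted regions and called with MACS 1.4.2, each RNAPII library against IgG. The single untreated IgG library was assumed to be the background in both calls of the doxycycline arm. The tags deposited with each peak are raw counts, with no scaling by the authors. The significance score deposited by the authors is −log10 of the p-value, times 10. The deposited fold enrichment is the authors' ratio over local background, and the deposited FDR is in percent.

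Coordinates are those of hg19 (GRCh37) as deposited, counted from 1, and 0 peaks ran past a chromosome end. GENCODE lifted to GRCh37 gave spans and a reference transcript per gene. Peaks overlapping a gene span widened by 2 kb by at least 1 bp were summed. Promoters were read from the GRCh37 sequence. Intervals are exact 95% Poisson for densities and exact conditional binomial for folds. Tags are not independent molecules, so intervals cover counting error only.

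The members, gene lists and the comparisons were chosen with earlier results of these data known. Genes named from the chaperone lists are the leading gene, some genes above it in single peak lists, and genes without a peak in some or all lists. The other genes named are neighbours whose starts or spans lie in members' peaks, the 3 genes most like HSP90AB1, line markers and RECQL5. The summing of peaks was tested on simulated data. Python 3.11.15, numpy 2.4.6, pandas 2.3.3, scipy 1.17.1, matplotlib 3.10.9 and Biopython 1.88 were used.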

Additional observations from a re-analysis of the deposited data

How the results depend on the processing

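Counts of members with a peak, with a covered end or with 1 peak from start to end, and the median folds, were recomputed with peaks scoring 100 or more, with an FDR up to 5% or enriched 10-fold or more, and with other gene spans, other definitions of the end and merged peaks. Of 107 recomputed values 99 stayed within 1.5 times the count or within the interval of the median. Merging peaks under 1 kb apart moved the members with 1 peak from start to end to 2 in the control list, 8 upon shRNA5, 7 without doxycycline and 6 with it, a count and alternatives chosen after seeing the data. Summed tags in place of tags per kb moved the median fold of shRNA5 against control to 2.59 and that of shRNA7 to 3.95. Dividing by the median fold over all genes moved shRNA7 against control to 1.34 and doxycycline against none to 0.881. Of 320 recomputed folds of single members, the added comparison of the hairpins included, 22 passed to the other side of 1, and in 7 of these the counting interval of the reported fold had excluded 1. With doxycycline these 7 included HSP90B1, at 0.722 with the strongest peak alone and at 0.932 after division by the median of all genes, HSPA5 at 0.905 and HSPD1 at 0.997 after that division. For shRNA7 against shRNA5 they included HSPH1, at 1.18 with a fold enrichment of at least 10, at 1.18 with the strongest peak alone and at 2.42 with summed tags. No paired analysis was possible because there was 1 library per group, and for the same reason no library could be left out. The weakest control peak held 35 tags, and why HSP90AA1 and HSPH1 lack a control peak was not tested.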
